A study of Mus musculus with 4 samples.

Results

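T cells that made the chemokine gene Xcl1 together with the orphan nuclear receptor gene Nr4a2 or the inhibitory receptor gene Ctla4 were examined in single-cell RNA-seq of CD4 T cells that maintain graft-versus-host disease (GVHD). A member was a barcode with at least 1000 unique molecular identifiers (UMIs, each standing for 1 captured mRNA molecule), at least 500 genes and at most 10% mitochondrial UMIs. It also carried at least 1 UMI of Xcl1, at least 1 of Nr4a2 or Ctla4, none of Il10, UMIs of at most 2 of the 5 genes Il13, Csf2, Ccl1, Il1r2 and Tnfsf11, and at least 1 UMI of Cd3e, Cd3d or Cd3g. Library 1 held 565 members and library 2 held 650, which made 1215 of 34829 Cd3-detected cells and of 34918 kept cells in all. The reference was the Cd3-detected cells without an Xcl1 UMI, of which library 1 held 17710 and library 2 held 14547.

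All cells, members and reference alike, were labelled as TS1 transgenic CD4 T cells on the BALB/c RAG2-/- background. TS1 cells carry a transgenic T cell receptor. The cells were sorted from mice with GVHD 4 weeks after transplantation and came from spleen, colon, skin, small-intestinal intraepithelial lymphocytes and small-intestinal lamina propria. The label describes the sort, and some kept barcodes held markers of other cell types, as given below. Each of 2 replicates pooled the 5 compartments in 1 expression library, and nothing in the labels says that the replicates were separate animals. Library was a block in the fits. The p-values therefore weigh a class difference against counting error and its variation between these 2 libraries, which may be technical. With 1 residual degree of freedom they lean on a variance pooled over genes, and a gene whose libraries differ can still have a small p-value. There was no untreated or GVHD-free group. The feature lists of the 2 hashtag libraries used here held 0 hashtag features, so no cell was given a tissue: a difference between classes of cells cannot be told apart from a different mixture of tissues.

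XCL1 is a chemokine that activated T cells and natural killer cells secrete, and its receptor XCR1 is carried by the cross-presenting conventional dendritic cells. The NR4A nuclear receptors act without a classical ligand, and their genes are induced early after T cell receptor signalling. CTLA-4 is induced after activation as well and competes with CD28 for the B7 ligands on antigen-presenting cells, which restrains the T cell. Ccl4 encodes an inflammatory chemokine, and Itga1 the collagen-binding integrin chain of many tissue-resident T cells. Both serve, with Xcl1, Nr4a2 and Ctla4, as markers of these cells.

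The start sites of the genes that define or accompany the members differed in base composition, and 4 of them are shown from 250 bases before to 50 after the gene's start, as in RefSeq for GRCm38.p6 (a C57BL/6J assembly, while the mice were BALB/c). Of 12 genes looked up, 9 had such a window: Xcl1, Nr4a2, Ctla4, Ccl3, Rgs16, Nr4a1, Tnfrsf9, Ifng and Rel. Crtam, Penk and Ccl4 are named only. Capitals mark CG dinucleotides, the sites of DNA methylation. Xcl1 lies on the minus strand at chr1:164935473-164935772, Nr4a2 on the minus strand at chr2:57123954-57124253, Ccl3 on the minus strand at chr11:83649329-83649628 and Rgs16 on the plus strand at chr1:153740103-153740402.
Xcl1: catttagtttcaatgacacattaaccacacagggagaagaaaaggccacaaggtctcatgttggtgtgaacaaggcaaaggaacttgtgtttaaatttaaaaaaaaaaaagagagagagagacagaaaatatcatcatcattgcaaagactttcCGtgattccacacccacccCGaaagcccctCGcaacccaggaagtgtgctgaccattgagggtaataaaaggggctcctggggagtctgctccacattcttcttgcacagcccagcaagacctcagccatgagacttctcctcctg
Nr4a2: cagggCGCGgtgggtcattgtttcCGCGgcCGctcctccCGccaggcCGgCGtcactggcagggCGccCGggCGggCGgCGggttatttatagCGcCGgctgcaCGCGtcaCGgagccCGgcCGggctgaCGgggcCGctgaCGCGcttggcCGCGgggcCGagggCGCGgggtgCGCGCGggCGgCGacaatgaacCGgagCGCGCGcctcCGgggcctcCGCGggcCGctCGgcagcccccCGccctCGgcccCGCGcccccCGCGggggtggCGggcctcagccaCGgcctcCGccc
Ccl3: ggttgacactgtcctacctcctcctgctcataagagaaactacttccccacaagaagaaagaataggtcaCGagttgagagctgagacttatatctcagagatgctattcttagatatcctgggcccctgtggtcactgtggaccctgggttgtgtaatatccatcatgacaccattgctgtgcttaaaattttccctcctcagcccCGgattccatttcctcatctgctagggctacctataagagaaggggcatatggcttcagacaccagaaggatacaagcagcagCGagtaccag
Rgs16: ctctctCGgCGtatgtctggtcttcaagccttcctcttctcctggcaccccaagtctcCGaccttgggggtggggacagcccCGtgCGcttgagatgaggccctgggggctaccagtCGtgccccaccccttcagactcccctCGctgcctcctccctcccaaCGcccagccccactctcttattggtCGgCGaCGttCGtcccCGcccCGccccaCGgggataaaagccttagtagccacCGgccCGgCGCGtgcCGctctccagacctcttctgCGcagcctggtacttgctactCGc
The windows of the chemokine genes Xcl1 and Ccl3 held 3 CG dinucleotides each, against a median of 7 over all 32851 windows of the table. The Nr4a2 window held 52 and was 81.7% G or C, and 99.4% of all windows held fewer CG dinucleotides. The Rgs16 window held 22. The motifs searched on both strands were the NFAT core GGAAAA, the AP-1 site TGANTCA, the cyclic AMP response element TGACGTCA, the NR4A monomer site AAAGGTCA and an NF-kB site of GGGA and TTCC with 2 bases of any kind between them. Among the 4 windows shown, the only match was an NFAT core in Ccl3, read as TTTTCC on the gene's strand from position -60, and 23.4% of all windows held that core. Among the windows not shown, Ctla4 held an NFAT core from position -145. Tnfrsf9 held an NFAT core from -138 in 1 window and an AP-1 site, TGAGTCA, from -15 in another. Nr4a1, Ifng and Rel held no match. The AP-1 site occurred in 7.81% of all windows, the cyclic AMP response element in 1.79%, the NR4A site in 1.51% and the NF-kB site in 1.47%. No match says only that these letters are not in these windows.

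The 2 libraries held 89427990 and 108082997 UMIs over all barcodes, and kept cells had medians of 2688 UMIs and 1203 genes in library 1 and 3699 UMIs and 1485 genes in library 2. Members were deeper than the reference, with median UMIs of 3600 in members and 2670 in the reference of library 1, and 4585 and 3660 in library 2. A rule that asks for UMIs selects deep cells, so the comparisons below used cells thinned at random to 1500 UMIs, with the rule applied again to what was left, except where full depth is named. Thinning kept 15288 and 14855 cells, of which 193 and 224 were members and 14570 and 14132 had no Xcl1 UMI. Members made up 1.27% of Cd3-detected cells in library 1 (exact 95% interval 1.10 to 1.46) and 1.52% in library 2 (1.33 to 1.73), against 2.98% and 4.10% before thinning. There were 599 barcodes kept in both libraries, where 44.5 would be shared by equal chance. Their median depth was 15782 UMIs in library 1 and 1726 UMIs in library 2, and the reason was not tested. The shared barcodes included 47 and 24 of the members and 7 and 4 of the thinned members, and the calls that ended without them are named below.

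The label CD4 T cell was checked first. The 11 genes of the alpha-beta T cell list were all detected in members, and their summed level was 13237 and 13060 CPM (counts per 1000000 UMIs of the class) in members of library 1 and 2, against 13668 and 13517 CPM in the reference. Cd3e, Cd3d and Cd3g are in this list, and both classes had to hold a UMI of at least 1 of them. The sum is therefore partly set by how the cells were chosen. Trac, the constant region of the T cell receptor alpha chain, is not in the rule. It had a UMI in 76.7% and 74.6% of members and in 69.6% and 68.2% of the reference. Cd4 had a UMI in 23.8% and 28.6% of thinned members and in 25.3% and 25.8% of the reference, close to each other at this depth. Cd8a had a UMI in 37.3% and 17.4% of members and in 32.6% and 30.2% of the reference, so the libraries differed in direction. Its level was 442 and 229 CPM in members and 489 and 461 CPM in the reference, and by edgeR's quasi-likelihood test it fell (log2 fold change -0.55 ± 0.10 SE, adjusted p = 0.000145), with -0.16 in library 1 and -1.001 in library 2. Cd8b1, the second chain of the CD8 heterodimer, had a UMI in 5.18% and 6.70% of members and in 6.25% and 6.34% of the reference. Foxp3, the regulatory T cell factor, had no UMI in 193 and 224 members, which allows shares of cells with a UMI of up to 1.55% and 1.34% by counting error alone. The list of CD8, natural killer and innate lymphoid genes summed to 1164 and 1122 CPM in members and 1236 and 1155 CPM in the reference. Of its natural killer genes, Klrb1c was at 0 in members of both libraries. Ncr1 stood at 3.45 and 2.98 CPM in members and 1.14 and 1.32 CPM in the reference. Both genes are near the floor, so no direction is read from them. Klrd1 and Klrk1, also in the list, were less sparse. Barcodes under 100 UMIs held 463 and 450 CPM of Klrd1 and 108 and 130 CPM of Klrk1 in library 1 and 2. Of 8 genes of the list measured in the thinned fit, Cd8a alone was called. At full depth, and with the reference matched to members in depth, Fcer1g, Tyrobp and Cd8a fell. In the matched fit Ncr1 and Klrk1 rose. The gamma-delta T cell list summed to 390 and 452 CPM in members and 432 and 482 CPM in the reference. The B and plasma cell list summed to 0 and 2.98 CPM in members and 3.07 and 2.08 CPM in the reference. Members held Cd3 mRNA by the rule, and Cd4 and Cd8a were both seen in a minority of cells at 1500 UMIs.

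Xcl1 was seen in 3.91% and 3.96% of thinned Cd3-detected cells. In cells of other types, taken as those with 5% or more of their UMIs from marker genes of myeloid, neutrophil, basophil, erythroid, epithelial or B cells, Xcl1 had a UMI in 1.05% of 95 cells and 1.79% of 112 cells at the same 1500 UMIs. Before thinning the median depth was 5189 and 9038 UMIs in those cells and 3125 and 3848 in the Cd3-detected cells. Barcodes under 100 UMIs, which hold free RNA, carried 81.9 and 99.1 CPM of Xcl1. In members Xcl1 averaged 2629 and 3095 CPM, a level the rule itself sets. A single Xcl1 UMI qualified 66.3% and 65.6% of the thinned members, and the part of these that free RNA gave was not tested.

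The members divided about evenly between the genes that qualified them. Nr4a2 without Ctla4 was seen in 81 and 89 thinned members, Ctla4 without Nr4a2 in 83 and 86, and both in 29 and 49. Nr4a2 had a UMI in 21.6% (18.3 to 25.1) and 27.8% (24.2 to 31.6) of Xcl1-detected cells, against 14.7% (14.1 to 15.3) and 18.1% (17.5 to 18.8) of cells without Xcl1. Ctla4 had a UMI in 21.1% (17.9 to 24.6) and 25.9% (22.4 to 29.7) of Xcl1-detected cells, against 21.9% (21.3 to 22.6) and 27.6% (26.9 to 28.3) of cells without Xcl1. At 1500 UMIs the share with Nr4a2 was higher in Xcl1-detected cells of both libraries, and the share with Ctla4 was slightly lower in both. The intervals count cells and cover counting error only, so their overlap or its absence is no test. These shares moved with depth. At 1000 UMIs Nr4a2 had a UMI in 13.2% (10.6 to 16.0) of Xcl1-detected cells of library 1, against 10.4% (9.98 to 10.9) of cells without Xcl1. In library 2 the shares with Nr4a2 at 1000 UMIs were 20.97% (17.47 to 24.82) and 13.42% (12.88 to 13.98). At full depth Ctla4 had a UMI in 36.3% (33.6 to 39.0) and 49.1% (46.3 to 51.8) of Xcl1-detected cells, against 32.6% (31.9 to 33.3) and 44.4% (43.6 to 45.2) of cells without Xcl1, where depth differed between the classes. In cells of other types Nr4a2 had a UMI in 3.16% and 4.46% and Ctla4 in 7.37% and 6.25%. Since these genes chose the members, the shares are a description with no test.

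**Figure D1:**
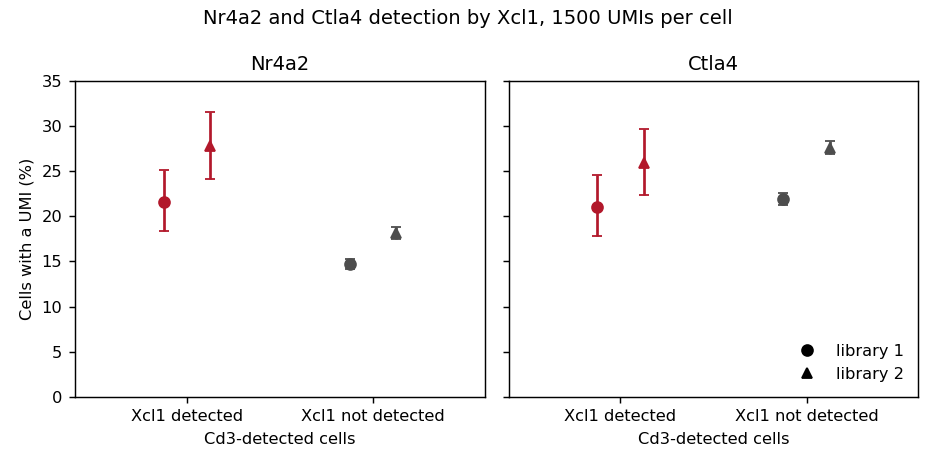
Share of thinned Cd3-detected cells with a UMI of Nr4a2 or Ctla4 (y axis, %), in cells with and without Xcl1, for library 1 (circles) and library 2 (triangles); bars are exact 95% binomial intervals over cells. Nr4a2 lies at 21.6% and 27.8% in Xcl1-detected cells, above 14.7% and 18.1%, while Ctla4 lies at 21.1% and 25.9% against 21.9% and 27.6%.

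The markers were then read in UMIs that the rule had not used: the 1500 UMIs of each cell were divided at random into equal parts, the first part chose 84 and 94 members, and levels came from the second. Xcl1 stood at 3479 and 4555 CPM in these members, against 24.2 and 23.1 CPM in the reference, so the Xcl1 signal of the chosen cells was carried by further molecules. It had a UMI of the second part in 39.3% of the members of library 1. Nr4a2 stood at 413 and 655 CPM in members and 129 and 166 CPM in the reference. Ctla4 was nearer, with 302 and 384 CPM in members and 229 and 295 CPM in the reference, and had a UMI in 16.7% and 17.02% of members and 13.4% and 17.1% of the reference. Ccl4 reached 13137 and 15971 CPM in members against 3827 and 4525 CPM in the reference. Itga1 stood at 15.9 and 85.4 CPM in members and 66.3 and 78.4 CPM in the reference. The groups of Itga1 overlap, so Itga1 did not mark these cells as its place among the markers would have it, whereas the levels of Xcl1, Nr4a2 and Ccl4 stood clear of the reference. Ctla4 was higher in members by level, and by the share of cells with a UMI only in library 1. In a second random split that share was 12.3% and 30.6% in members and 13.7% and 17.04% in the reference.

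**Figure D2:**
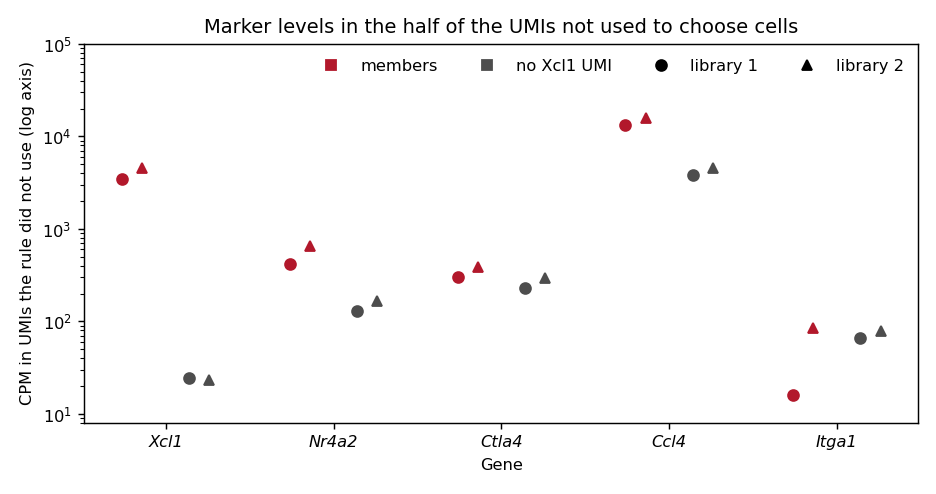
Level of the 5 marker genes in the UMIs that the rule had not used (y axis, CPM on a log axis), in members (red) and cells without an Xcl1 UMI (grey) of library 1 (circles) and library 2 (triangles). Xcl1 at 3479 and 4555 CPM and Ccl4 at 13137 and 15971 CPM stand clear of the reference, and Itga1 overlaps it.

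At the edges of the rule before thinning, 110 and 109 members had UMIs of exactly 2 of the 5 excluded genes and a mean Xcl1 level of 2504 and 1529 CPM, while the 37 and 65 cells with 3 of them, just outside, had Xcl1 at 4014 and 3862 CPM. The 34 and 112 cells left out for Il10 had Xcl1 at 370 and 1362 CPM and Ccl4 at 11390 and 9643 CPM, against Ccl4 at 4816 and 5327 CPM in all members. The Il10 part of the rule thus left out cells rich in Ccl4, and the 5-gene part left out cells rich in Xcl1. Among thinned members Ccl1, a chemokine for CCR8, stood at 670 and 771 CPM, against 393 and 363 CPM in the reference. Csf2, the gene of GM-CSF, stood at 263 and 202 CPM in members and 142 and 129 CPM in the reference. Il13 did not keep 1 direction, with 155 and 26.8 CPM in members and 62.1 and 70.4 CPM in the reference.

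Set against Cd3-detected cells without Xcl1, members carried more mRNA of the chemokine gene Ccl3, of Ifng and of several genes induced by T cell receptor signalling, and less of Ccl5, Gzma and Gzmb. Among the named genes the largest rises were in Crtam, Rgs16, Penk, Ccl3, Egr2, Rel and Tnfrsf9. UMIs summed per library and class were fitted with edgeR, and of 11056 genes 112 (1.01%) passed a Benjamini-Hochberg adjusted p of 0.05, of which 57 rose (0.516%) and 55 fell (0.497%), with 803 at an unadjusted p under 0.05. With RLE size factors in place of TMM, 80 rose and 51 fell. The 12 genes of the rule, Ccl4 and Itga1 were not tested.

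Of the chemokine and cytokine genes, Ccl3, whose product attracts cells that carry CCR1, stood at 1827 and 2616 CPM in members and 719 and 894 CPM in the reference. It rose in both libraries, with a log2 fold change of 1.44 ± 0.05 (SE, adjusted p = 9.26e-43). Ifng, the gene of interferon gamma, stood at 1762 and 1890 CPM in members and 791 and 933 CPM in the reference, and rose by a log2 fold change of 1.06 ± 0.05 (adjusted p = 2.51e-31). Ccl5, another inflammatory chemokine gene, went the other way with 26739 and 30756 CPM in members and 32130 and 36094 CPM in the reference, a log2 fold change of -0.27 ± 0.04 (adjusted p = 2.27e-08). Of 6 chemokine ligands measured 1 rose and 1 fell, and of 11 genes of the type 1 programme Ifng and Stat4 rose and none fell. Without the shared barcodes Stat4 was no longer called (adjusted p = 0.0619). Tnf, at 252 and 223 CPM in members and 175 and 170 CPM in the reference, narrowly missed the threshold (adjusted p = 0.0517).

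The receptors and signal genes that rose were mostly sparse. Crtam encodes an adhesion receptor of activated T cells and lies on chromosome 9, 40969691 to 41004628 (mm10). It stood at 65.6 and 122 CPM in members and 14.4 and 17.9 CPM in the reference, with a UMI in 5.70% and 11.6% of members and 2.06% and 2.51% of the reference. Its log2 fold change was 2.52 ± 0.27 (adjusted p = 3.28e-12). Rgs16, which shortens signals of G protein-coupled receptors such as those for chemokines, stood at 304 and 324 CPM in members and 100.4 and 107 CPM in the reference (log2 fold change 1.58 ± 0.12, adjusted p = 7.47e-21). Penk, the precursor of the enkephalin peptides, stood at 701 and 693 CPM in members and 258 and 231 CPM in the reference (1.49 ± 0.08, adjusted p = 1.78e-29). The groups did not overlap for any of these genes, though the share of all genes without overlap was not counted. Each rose in both libraries, which was a condition of being named.

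Of 16 measured genes that T cell receptor signalling induces, 7 rose (Cd83, Egr2, Tnfrsf9, Nr4a3, Nr4a1, Dusp5 and Cd69) and none fell, where 0.516% of all genes rose, with a list median of 0.64 against -0.07 over all genes tested. Cd83, a surface molecule of activated cells, had the largest fold of these (1.97 ± 0.40), at 58.7 and 20.8 CPM in members and 12.3 and 7.31 CPM in the reference. It changed by -0.01 at full depth, its adjusted p was 0.320 without cells holding markers of other types, and it is named after its values were seen, as are Dusp5 and Cd69. Tnfrsf9, a co-stimulatory receptor of the TNF receptor family, stood at 193 and 292 CPM in members and 104 and 93.6 CPM in the reference (log2 fold change 1.30 ± 0.14, adjusted p = 9.26e-13). Nr4a1, a relative of Nr4a2, stood at 204 and 244 CPM in members and 111 and 134 CPM in the reference (0.85 ± 0.13, adjusted p = 6.47e-07). Nr4a3, the other relative, stood at 31.1 and 98.2 CPM in members and 25.9 and 33.4 CPM in the reference, groups that overlap (1.13 ± 0.27, adjusted p = 0.00995). Egr2, a zinc finger factor, stood at 62.2 and 35.7 CPM in members and 16.0 and 21.04 CPM in the reference (1.35 ± 0.34, adjusted p = 0.0153). Without the shared barcodes 4 of the 16 rose (Cd83, Tnfrsf9, Nr4a1 and Cd69), and the adjusted p was 0.101 for Nr4a3, 0.0970 for Egr2 and 0.0744 for Dusp5.

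Genes of the AP-1, NF-kB and RNA-decay lists rose as well. Of 11 AP-1 and related factors measured, Batf, Junb, Fosb, Jund and Jun rose and none fell, with a list median of 0.34. Junb was the most certain, at 3427 and 3473 CPM in members and 2341 and 2460 CPM in the reference (log2 fold change 0.50 ± 0.04, adjusted p = 5.08e-16). Of 11 genes of the NF-kB pathway, Rel, Tnfaip3 and Nfkbia rose and none fell, with a list median of 0.38. Rel, the c-Rel subunit, stood at 214 and 268 CPM in members and 88.4 and 103 CPM in the reference (1.31 ± 0.13, adjusted p = 8.90e-14). Tnfaip3 and Nfkbia encode inhibitors of the pathway and changed by 0.52 ± 0.09 and 0.38 ± 0.06. Zfp36l1 and Btg1 rose among 7 RNA-decay regulators. None of these factors but Rel was called at full depth, where Junb changed by 0.16 (adjusted p = 0.183) and Tnfaip3 by 0.14 (adjusted p = 0.265). They lie outside the naming rule and were named after their values were seen. Fosb, Jun, Zfp36l1 and Btg1 were not called without the shared barcodes (adjusted p = 0.249, 0.0922, 0.0622 and 0.249). Tgif1, Ier5l and Tagap, which are in none of the lists, rose by 1.29 ± 0.23, 1.20 ± 0.25 and 1.10 ± 0.15.

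**Figure D3:**
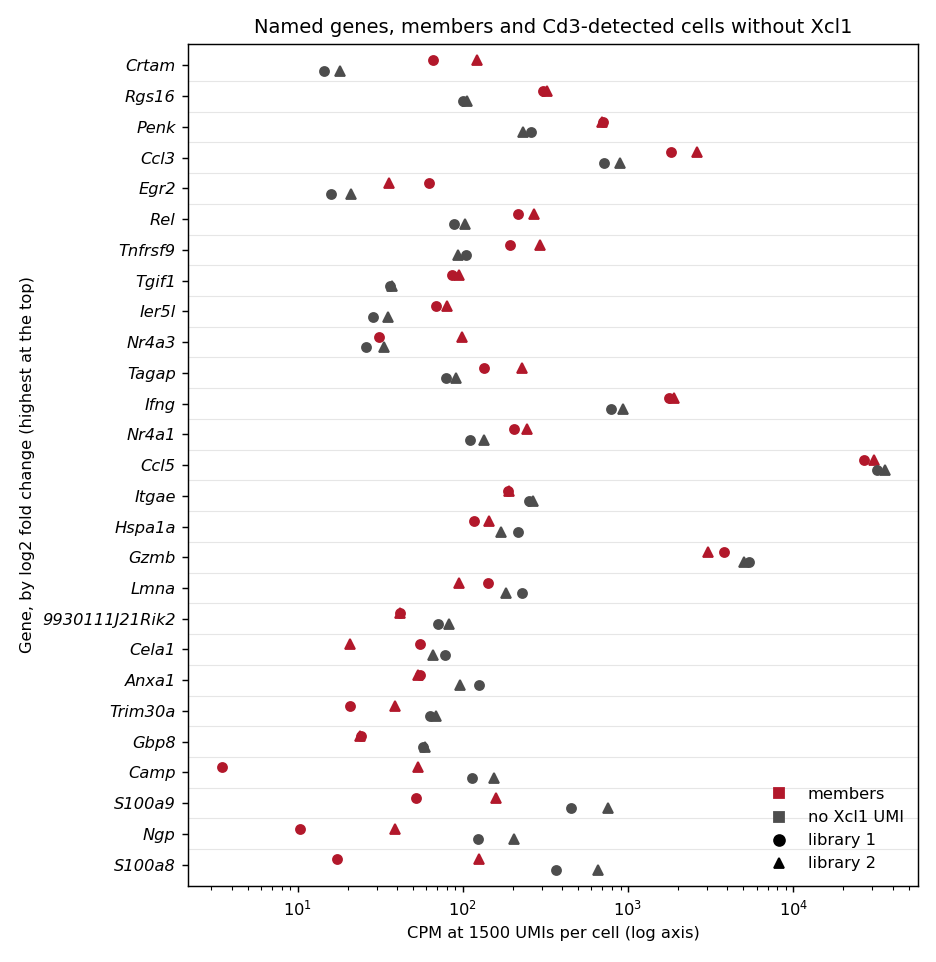
Level of named genes (x axis, CPM on a log axis at 1500 UMIs per cell) in members (red) and Cd3-detected cells without an Xcl1 UMI (grey), for library 1 (circles) and library 2 (triangles), ordered by fitted log2 fold change. Among these genes Crtam has the largest rise (2.52) and S100a8 the largest fall (-2.83), and Nr4a3 is the gene with overlapping groups.

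Granule genes fell while other genes of the same list rose. Gzmb, encoding granzyme B, stood at 3817 and 3039 CPM in members and 5430 and 5052 CPM in the reference, a log2 fold change of -0.64 ± 0.05 (adjusted p = 4.33e-22). Gzma, encoding granzyme A, stood at 11838 and 10506 CPM in members and 15924 and 15387 CPM in the reference (-0.51 ± 0.04, adjusted p = 2.54e-20). Srgn and Nkg7, which encode a granule proteoglycan and a granule membrane protein, rose by 0.33 ± 0.05 and 0.24 ± 0.05, so that 2 of 11 measured genes rose and 2 fell. Gzma, Srgn and Nkg7 were not called at full depth and were named after their values were seen, as were Stat4, Rbpj and Lag3. Nkg7 and Rbpj were not called without the shared barcodes (adjusted p = 0.0970 and 0.119). Among 13 measured residency genes Rgs16 and Rbpj rose and Itgae, the E-cadherin-binding integrin chain CD103, fell: 187 and 190.5 CPM in members against 250 and 265 CPM in the reference (-0.48 ± 0.12, adjusted p = 0.0242). Of 13 inhibitory receptor genes and Tox factors measured, Lag3 alone rose (0.48 ± 0.11) and none fell. Pdcd1, encoding PD-1, stood at 200.3 and 161 CPM in members and 142 and 115 CPM in the reference (adjusted p = 0.0987). Tox had 82.9 and 143 CPM in members and 88.2 and 116 CPM in the reference.

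Further genes fell. The guanylate-binding protein gene Gbp8 had a log2 fold change of -1.30 ± 0.31, Trim30a of -1.14 ± 0.28 and 9930111J21Rik2 of -0.92 ± 0.25. The annexin gene Anxa1 changed by -1.03 ± 0.21, Cela1, encoding an elastase, by -0.98 ± 0.26, and Lmna, encoding nuclear lamin A, by -0.83 ± 0.15. Hspa1a, encoding an inducible chaperone whose near-identical copy Hspa1b can share its reads, changed by -0.57 ± 0.15. Their groups did not overlap, which was not counted over all genes. Hspa1a, Cela1 and 9930111J21Rik2 were not called without the shared barcodes (adjusted p = 0.142, 0.122 and 0.108).

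The steepest falls were in neutrophil genes. S100a8 stood at 17.3 and 125 CPM in members and 364 and 658 CPM in the reference, a log2 fold change of -2.83 ± 0.15 (adjusted p = 1.97e-30). S100a9 changed by -2.53 ± 0.13, Ngp by -2.72 ± 0.24 and Camp by -2.18 ± 0.25, and 6 of 7 listed neutrophil genes fell. The list summed to 82.9 and 396 CPM in members, with 3 and 1 of its 7 genes at 0, against 1107 and 1866 CPM in the reference, with none at 0. Cells with 3 or more UMIs of markers of other cell types, these neutrophil genes among them, were then left out. The filter counts the neutrophil genes themselves, so their values after it are no test of their falls. S100a8 changed by -0.62 (adjusted p = 0.790), Ngp by -0.15, Camp by -0.23 and S100a9 by 0.02 (adjusted p = 0.997) there. In that fit 25 of the 112 calls remained, with 188 and 194 members and 13904 and 12305 cells of the reference. Those 25 included Ccl3, Ifng, Crtam, Rgs16, Penk, Rel, Tnfrsf9, Nr4a1, Gzmb and Ccl5. Of the falls whose call ended in that fit, Gbp8 changed by -1.28 there, Lmna by -0.91 and Anxa1 by -0.84, close to their values with all cells. Without the shared barcodes 66 of the 112 calls remained, with 37 up and 29 down.

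The number of calls moved with depth. At full depth 968 of 13277 genes (7.29%) passed, 614 up (4.62%) and 354 down (2.67%). When the reference was instead matched to the members in depth, with no thinning, 495 of 10171 genes (4.87%) passed, 246 up (2.42%) and 249 down (2.45%), and these held 94 of the 112. In that fit 12 of 16 T cell receptor-induced genes rose and none fell, with Egr1, Egr3, Dusp2, Dusp4, Bhlhe40 and Irf8 added, while Cd83 was no longer called. In it also 6 of 11 AP-1 factors, 6 of 11 NF-kB genes and 6 of 7 RNA-decay regulators rose. Proliferation genes moved with depth: of 12 measured, 0 were called in the thinned fit, 8 rose at full depth, and 6 fell with the reference matched in depth. Mki67, a marker of cycling cells and among those 6, had 24.2 and 23.8 CPM in thinned members and 44.1 and 42.9 CPM in the thinned reference (adjusted p = 0.355 there). No gene of the lists for chemokine receptors, co-stimulatory receptors, lymphoid retention, type 2, type 17, regulatory, follicular helper, glycolysis or ribosomal genes passed in the thinned fit.

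Levels also differed with how much Xcl1 a member held, which is given as a description since Xcl1 chose the cells. Crtam stood at 267 and 328 CPM in the 35 and 59 thinned members with 3 or more Xcl1 UMIs, against 15.6 and 22.7 CPM in the 128 and 147 members with a single UMI. The single-UMI levels lie near the 14.4 and 17.9 CPM of cells without Xcl1. Ccl3 stood at 5771 and 5627 CPM with 3 or more Xcl1 UMIs, against 901 and 1197 CPM with a single UMI. Ifng stood at 3905 and 3469 CPM with 3 or more, against 1052 and 1166 CPM with 1. Those genes were higher with more Xcl1 in both libraries, as were Penk, at 2095 and 1435 CPM with 3 or more against 406 and 431 CPM with 1, and Tnfrsf9, at 667 and 520 CPM with 3 or more against 72.9 and 222 CPM with 1. Gzmb went the other way, at 2705 and 2542 CPM with 3 or more against 4380 and 3392 CPM with 1. Junb was nearer, at 3429 and 3853 CPM with 3 or more against 3083 and 3247 CPM with 1. Members with a single UMI were thus closer to the reference in Crtam, Ccl3 and Tnfrsf9, and the few cells with 3 or more UMIs carried much of those rises.

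The members were next set against cells that met 1 side of the rule. Against 341 and 301 Xcl1-detected cells without Nr4a2 or Ctla4, 53 of 4791 genes (1.11%) passed, of which 45 rose (0.939%) and 8 fell (0.167%). The genes that rose included 2 of 14 measured T cell receptor-induced genes (Dusp5 and Nr4a1), 2 of 10 AP-1 factors (Junb and Jund) and 3 of 11 NF-kB genes (Tnfaip3, Rel and Nfkbia). Vps37b, encoding a subunit of the membrane-sorting complex ESCRT-I, stood at 304 and 417 CPM in members and 129 and 184 CPM in those cells (log2 fold change 1.21 ± 0.16, adjusted p = 3.97e-11). Dusp5, encoding a phosphatase of ERK kinases, stood at 238 and 268 CPM in members and 106 and 131 CPM in those cells (1.11 ± 0.18, adjusted p = 8.77e-07). Tnfaip3 stood at 387 and 497 CPM in members and 221 and 264 CPM (0.87 ± 0.14), and Junb at 3427 and 3473 CPM in members and 2260 and 2259 CPM (0.62 ± 0.08). Ier5l, Tgif1, Csrnp1, Rgs16, Rel, Icos, Ccl3, Nr4a1, Pim1, Btg2, Ifng, Jund and Nfkbia rose as well, by 0.38 to 1.37. Ccl5, which had fallen against cells without Xcl1, also rose here, so that both of the 2 chemokine ligands measured rose. It was not called at full depth or without the shared barcodes, and it was named after its values were seen. Hspa1a fell to 117 and 143 CPM in members, against 274 and 337 CPM (-1.22 ± 0.18, adjusted p = 5.46e-09). S100a8 and S100a9 passed too, but S100a8 had 17.3 and 125 CPM in members against 563 and 164 CPM, with most of the gap in library 1. The neutrophil list summed to 82.9 and 396 CPM in members and 1288 and 520 CPM in those cells, and its part in the result was not tested. Crtam did not differ by its test, with 65.6 and 122 CPM in members and 97.8 and 117 CPM in Xcl1-detected cells without Nr4a2 or Ctla4 (-0.18 ± 0.23, adjusted p = 0.899). Penk rose by 0.59 ± 0.12 at 1500 UMIs (adjusted p = 0.000140) and was not called at full depth (adjusted p = 0.104), and it was named after its values were seen. At full depth 77 of 9361 genes (0.823%) passed, 52 up (0.555%) and 25 down (0.267%). Without the library block 0 genes passed by edgeR, with 294 at an unadjusted p under 0.05, and DESeq2 called 2.

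Against 4222 and 4951 cells with Nr4a2 or Ctla4 but no Xcl1, 32 of 9559 genes (0.335%) passed, of which 14 rose (0.146%) and 18 fell (0.188%). Crtam stood at 65.6 and 122 CPM in members and 12.5 and 16.3 CPM in those cells (log2 fold change 2.67 ± 0.28, adjusted p = 1.24e-17). Penk stood at 701 and 693 CPM in members and 254 and 210 CPM (1.57 ± 0.09), and Tnfrsf9 at 193 and 292 CPM in members and 96.0 and 92.2 CPM (1.36 ± 0.14). Rgs16, Ccl3 and Rel rose by 1.18 ± 0.12, 1.07 ± 0.06 and 0.99 ± 0.13, and had also risen against Xcl1-detected cells. Gzmb fell to 3817 and 3039 CPM in members, against 5011 and 4772 CPM (-0.55 ± 0.06, adjusted p = 1.00e-16), and Ccl5 fell by 0.40 ± 0.06 on the log2 scale. Gbp8, the interferon regulatory factor gene Irf2 and Rgs1 changed by -1.29 ± 0.32, -0.61 ± 0.15 and -0.27 ± 0.07, where Rgs1 had overlapping groups. S100a8, S100a9 and Ngp changed by -1.49, -1.19 and -1.33 (log2), beside a neutrophil list sum of 82.9 and 396 CPM in members and 328 and 811 CPM in those cells, whose part was not tested. Junb had a log2 fold change of 0.06 ± 0.06 (adjusted p = 0.915) and Tnfaip3 of 0.01 ± 0.10 (adjusted p = 0.995). At full depth 799 of 11943 genes (6.69%) passed, 568 up (4.76%) and 231 down (1.93%). Both comparisons share the members, and the difference between their fold changes was not tested.

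**Figure D4:**
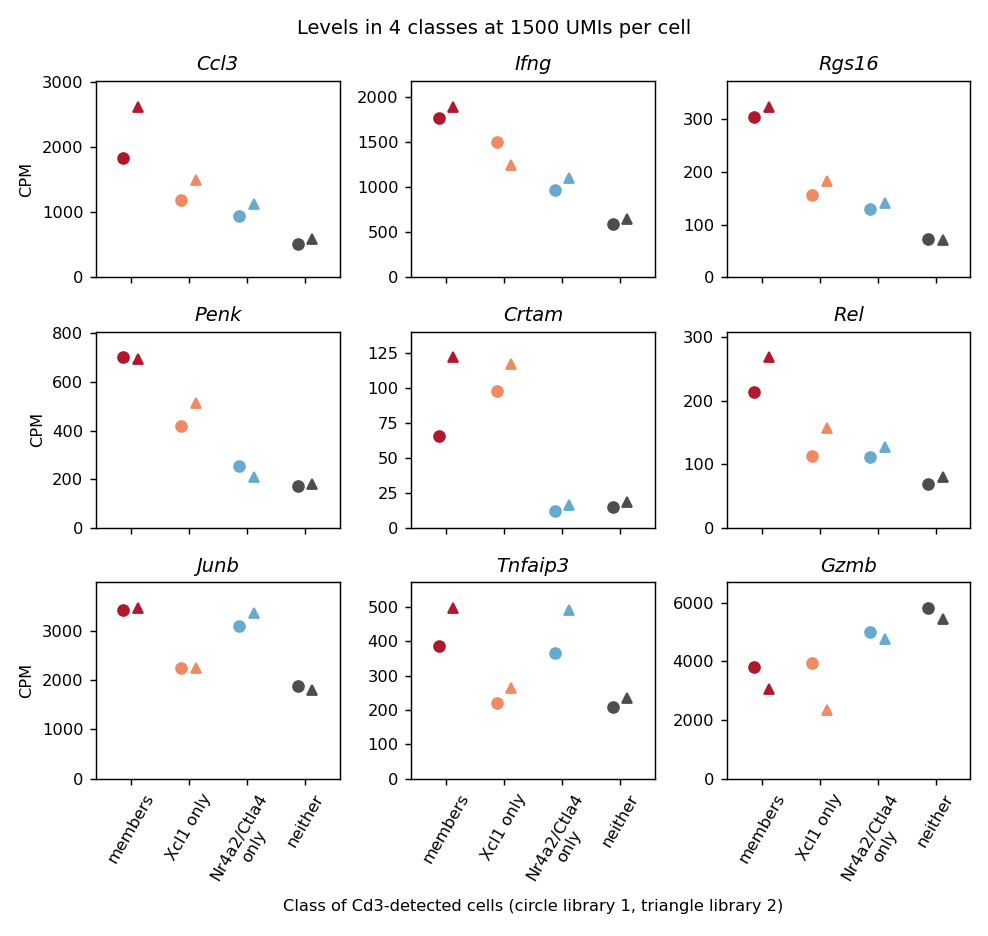
Level of 9 genes (y axis, CPM at 1500 UMIs per cell) in members, Xcl1-detected cells without Nr4a2 or Ctla4, cells with Nr4a2 or Ctla4 without Xcl1, and cells with neither, for library 1 (circles) and library 2 (triangles). Crtam is at 65.6 to 122 CPM in both Xcl1 classes and at 12.5 to 18.7 CPM in the others, Junb and Tnfaip3 are high in both classes with Nr4a2 or Ctla4, and Ccl3, Rgs16 and Rel are highest in members.

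In the 4 classes side by side, Crtam, at 15.3 and 18.7 CPM in cells with neither side of the rule, was as low there as in cells with Nr4a2 or Ctla4 alone. Junb, at 1890 and 1803 CPM in cells with neither, was near the 2260 and 2259 CPM of cells with Xcl1 alone. Ccl3 stood at 1827 and 2616 CPM in members, 1191 and 1491 CPM with Xcl1 alone, 934 and 1130 CPM with Nr4a2 or Ctla4 alone, and 515 and 594 CPM with neither. Ccl3 thus had the same order of classes in both libraries.

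Members with Nr4a2 alone were then compared with members with Ctla4 alone, and they carried more Crtam, Ccl3 and Ifng and less Ifngr1, Tsc22d3 and Gzmb at 1500 UMIs per cell. Of 1959 genes tested, 11 passed (0.562%), with 7 higher (0.357%) and 4 lower (0.204%) in the Nr4a2-only members. Crtam stood at 107 and 172 CPM in Nr4a2-only members and 16.1 and 15.5 CPM in Ctla4-only members (log2 fold change 3.07 ± 0.66, adjusted p = 0.00571). The Ctla4-only levels, from 83 and 86 cells, are near the floor, so the size of this fold is uncertain. At full depth it was 2.09 (adjusted p = 2.24e-05). Ifngr1, a chain of the interferon gamma receptor, stood at 206 and 142 CPM in Nr4a2-only members and 426 and 434 CPM in Ctla4-only members (-1.31 ± 0.25, adjusted p = 0.000589). Tsc22d3, a glucocorticoid-induced gene, stood at 313 and 202 CPM in Nr4a2-only members and 418 and 527 CPM in Ctla4-only members (-0.89 ± 0.22, adjusted p = 0.0384). Crip1, which encodes a small LIM-domain protein, changed by -0.45 ± 0.11 (adjusted p = 0.0384). In a second random thinning Crtam passed (2.38, adjusted p = 5.78e-05), Ifngr1 (-0.57) and Tsc22d3 (-0.50) did not (adjusted p = 0.848 for both), and Crip1 changed by 0.09. DESeq2 called none of these 4. Without the shared barcodes only Ccl3 and Ifng of the 11 passed, and the adjusted p was 0.203 for Crtam and Ifngr1 and 0.731 for Tsc22d3 and Crip1.

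The other 7 genes fall outside the naming rule, because they did not pass at full depth, and are named after their values were seen. Ccl3 stood at 2897 and 3970 CPM in Nr4a2-only members and 795 and 1643 CPM in Ctla4-only members (log2 fold change 1.52 ± 0.12, adjusted p = 1.45e-16; 0.58, adjusted p = 0.0578 at full depth). Ifng stood at 2354 and 2704 CPM in Nr4a2-only members and 996 and 1357 CPM in Ctla4-only members (1.11 ± 0.12), but its full-depth value was -0.39 (adjusted p = 0.203). Tnfrsf9, Rel, Rgs16 and Penk were higher by 1.25, 1.10, 1.09 and 0.74, and by 0.06, 0.13, 0.03 and 0.05 at full depth. Gzmb changed by -0.42 and by -0.37 at full depth. At full depth 131 of 7552 genes (1.73%) passed, 66 up (0.874%) and 65 down (0.861%), among them 6 of 10 co-stimulatory receptor genes, all lower in Nr4a2-only members: Icos, Cd28, Tnfrsf4, Tnfrsf18, Slamf1 and Tnfsf8. Icos, a relative of CD28, had 107 and 172 CPM in thinned Nr4a2-only members and 321 and 240 CPM in thinned Ctla4-only members (adjusted p = 0.117), and changed by -1.66 at full depth (adjusted p = 1.17e-05). In the same full-depth fit H2-Aa, Cd74, H2-Ab1, Hbb-bs, Epcam and Lgals4, markers of other cell types, were higher in Nr4a2-only members. The erythroid list summed to 3324 and 158 CPM in Nr4a2-only members and 15.8 and 212 CPM in Ctla4-only members at full depth, the epithelial list to 18.4 and 2698 CPM in Nr4a2-only members and 58.1 and 30.4 CPM in Ctla4-only members, and the myeloid list to 464 and 2214 CPM in Nr4a2-only members and 235 and 247 CPM in Ctla4-only members. Their part in the full-depth calls was not tested.

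**Figure D5:**
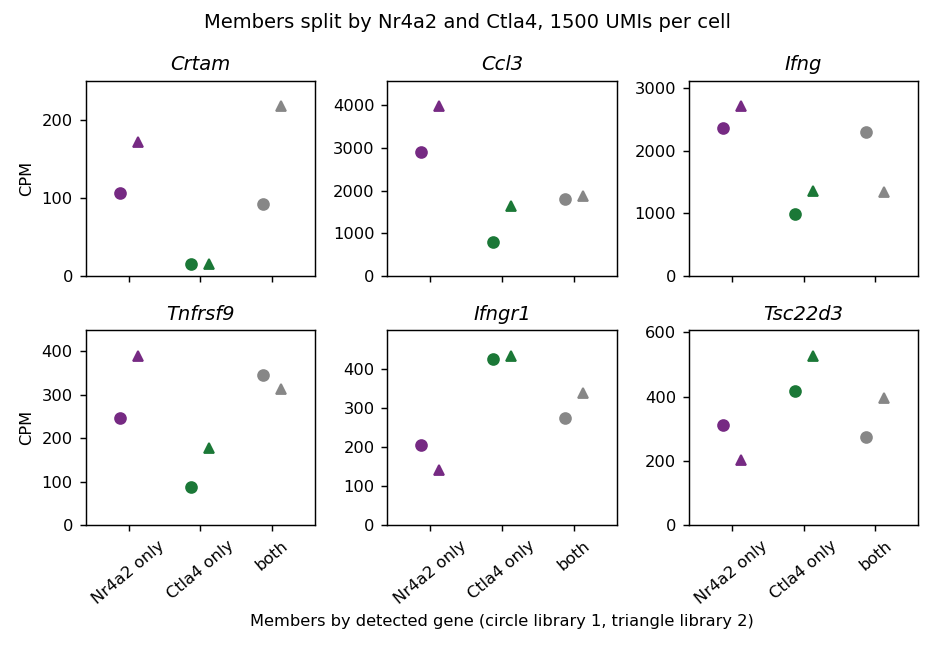
Level of 6 genes (y axis, CPM at 1500 UMIs per cell) in members with Nr4a2 only, Ctla4 only or both, for library 1 (circles) and library 2 (triangles). Crtam is at 107 and 172 CPM in Nr4a2-only members and at 16.1 and 15.5 CPM, near the floor, in Ctla4-only members. Ifngr1 runs the other way.

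Members with both genes, of which there were 29 and 49, held 92.0 and 218 CPM of Crtam, above the Ctla4-only members in both libraries. They held 276 and 340 CPM of Ifngr1, between the Nr4a2-only and the Ctla4-only members in both libraries. Their Junb level, 4207 and 4272 CPM, exceeded that of all members together. In the UMIs the rule had not used, Xcl1 stood at 4539 and 3737 CPM in Nr4a2-only members and 1129 and 4121 CPM in Ctla4-only members of library 1 and 2, and in a second random split at 5602 and 5425 CPM in Nr4a2-only members and 537 and 1074 CPM in Ctla4-only members. Library 2 therefore did not keep its order of the 2 kinds of member between splits, at 36 to 51 cells of each.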

How the data were processed

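Per the labels, sorted cells were hashed by tissue and run on the 10x 3' v3 assay. The authors deposited raw UMI counts per gene and barcode, made with Cell Ranger 3.1.0 on mm10, per the submitters' processing notes; the annotation is not given in the sources used here. The 2 hashtag libraries held 0 hashtag features and were not used. Cells had at least 1000 UMIs, 500 genes and at most 10% mitochondrial UMIs. Scrublet called 0 doublets, which is too few to rely on, and none were removed. The highest doublet scores were in 11.4% and 10.3% of thinned members and 7.10% and 8.34% of their reference; without such cells 123 genes passed. Each cell was thinned to 1500 UMIs without replacement, which kept 15288 of 19020 and 14855 of 15898 cells, and the rule was applied again. UMIs were summed per library and class (4 sums a fit) and tested with edgeR 4.0.16 (quasi-likelihood, TMM, filterByExpr, library as block, 1 residual degree of freedom, Benjamini-Hochberg). Both classes of a comparison come from the same 2 libraries, which is where the pairing comes from. The 12 rule genes were removed before fitting and Ccl4 and Itga1 were not tested. Gene positions are mm10 (GENCODE vM21).

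Members and gene lists were chosen with earlier results of these data known. Named genes were up to 4 a list and the 10 largest rises and falls (5 in the other 3 comparisons) of at least 50 CPM in the higher class, if they passed at 1500 UMIs and at full depth with 1 direction in both libraries. Alternatives were RLE size factors, no filter, DESeq2 1.42.0, no block, other thinnings, left-out cells and other member rules. Matching in depth and leaving out shared barcodes were added after seeing the data. On simulated counts the first comparison recovered 30% of 1.5-fold and 86% of 2-fold rises, with 2 false calls among 11056 genes. The Nr4a2-only against Ctla4-only test recovered 30% and 90%, with 9 false calls among 2007 genes. Both simulations gave all genes the same random spread, changed only well-counted genes and chose no cells by detection. Their false calls are therefore not an error rate for the real calls, and their recovery does not cover sparse genes. Intervals are exact Clopper-Pearson (95%) and cover counting error only. R 4.3.3, Python 3.11.15 and scanpy 1.11.5 were used. Results that involve items withheld for evaluation are not reported here.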

Additional observations from a re-analysis of the deposited data

How the results depend on the processing

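The number of calls moved with depth and with the model. Members against cells without Xcl1 gave 112 calls, and 968 with no thinning, 495 with the reference matched in depth, 66 without barcodes kept in both libraries, 63 with none of the 5 genes detected, 29 with separate UMIs for choosing and measuring, 25 without cells with markers of other types and 6 at 1000 UMIs. DESeq2 gave 33, and without the library block edgeR gave 14. A second random thinning gave 109, of which 74 were among the 112. Nr4a2-only against Ctla4-only members gave 11, and 131 with no thinning, 6 in a second thinning, 4 with no filter, 4 with no block, 2 with DESeq2 and 2 without shared barcodes. Members against Xcl1-detected cells gave 53, and 2 with DESeq2 and 0 with no block (edgeR, 294 at an unadjusted p under 0.05). Members against cells with Nr4a2 or Ctla4 gave 32, and 799 with no thinning, 15 with RLE, 12 with DESeq2 and 7 with no block. Of 742 values of named genes, 547 kept direction and call, 192 kept direction and lost the call, and 3 changed sign. The 66 values at full depth kept both by construction, since passing there in the same direction was a condition of being named. S100a9 changed sign against cells without Xcl1 (0.0244, without cells with markers of other types). In a second thinning Crip1 between Nr4a2-only and Ctla4-only members (0.0890) and S100a8 against Xcl1-detected cells (0.13) did so. The share of members, as the mean of both libraries, was 1.40% of Cd3-detected cells, 3.54% with no thinning, 0.902% at 1000 UMIs and 0.476% with Xcl1 at 2 UMIs or more, and lay between 1.27% and 1.52% with either library left out. Xcl1 in unused UMIs was 4017 CPM, and 3479 to 4555 CPM with either left out. With 1 library left the gene tests have no residual degrees of freedom and give values only. Causes of these moves were not tested.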

Other observations

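Some further genes passed where cells kept their full depth and the cells without Xcl1 were matched to the members in depth, a setting added after seeing the data. There Tcf7, the factor of progenitor-like T cells, rose by a log2 fold change of 0.55 ± 0.11 (SE, edgeR's quasi-likelihood test, adjusted p = 0.000117), and Il21r, the receptor gene for interleukin 21, by 0.40 ± 0.07 (adjusted p = 1.34e-05). The co-stimulatory genes Cd40lg, Slamf1 and Cd28 rose by 0.30 ± 0.08, 0.29 ± 0.08 and 0.21 ± 0.06. Ccr2, a chemokine receptor gene, fell by 0.37 ± 0.08 on the log2 scale, Isg15 by 0.34 ± 0.07 and Il2 by 0.66 ± 0.16. At 1500 UMIs none of these genes passed, and Tcf7 stood at 65.6 and 62.5 CPM in members and 43.8 and 46.1 CPM in cells without Xcl1. All were picked with their values in view.

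Gzmc, encoding granzyme C, went against Gzmb at full depth. It stood at 42.9 and 49.0 CPM in members and 13.3 and 12.3 CPM in cells without Xcl1 (log2 fold change 1.85, adjusted p = 1.73e-06 with edgeR). The signal sat in few cells: 16 of 565 and 22 of 650 members held 144 and 232 Gzmc UMIs, and 4 and 7 cells with 3 or more Xcl1 UMIs held 128 and 208 of those. A Gzmc UMI was seen in 2.83% and 3.38% of members and in 2.03% and 2.71% of cells without Xcl1. At 1500 UMIs Gzmc stood at 10.4 and 5.95 CPM in members and 12.3 and 13.2 CPM in cells without Xcl1 (-0.70, adjusted p = 0.912).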
